A study of Homo sapiens with 6 samples.

Results

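The 10 genes described here encode the cytosolic HSP90 and HSP70 chaperones and their closest helpers. They were chosen by gene symbol as HSF1-driven and constitutive cytosolic chaperones, and all 10 were found among the 28862 genes of the deposited count table and passed the filter on low counts. The libraries are mRNA-seq of SH-SY5Y, an established line grown from a human neuroblastoma and widely used as a neuron-like model, in 2 groups of 3. The first group is labelled as overexpressing SMN1 and the second received a control plasmid, and both groups share the cell line, itself a subclone of a tumour line; the labels used here give no time after transfection and no further genotype. The series asks which transcripts differ when SMN1, a gene of RNA-protein assembly, is overexpressed, with neuropathic pain as the setting named in its title.

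HSP90 is a dimeric ATPase that holds kinases, steroid receptors and other clients in a state from which they can be activated. HSP70 binds exposed hydrophobic stretches of unfolded chains in an ATP-driven cycle: J-domain proteins (HSP40) deliver the chain and stimulate ATP hydrolysis, and nucleotide exchange factors of the HSP110 and BAG families release it. Some of these genes are transcribed constitutively at high levels and others are induced by the transcription factor HSF1, which binds heat shock elements, arrays of the letters GAA and TTC in alternation. Neurons depend on this machinery to keep aggregation-prone proteins soluble.

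The letters of heat shock elements near the members' start sites are shown first because HSF1-driven genes were part of the choice, beside constitutive ones. RefSeq windows from 250 bases before to 50 bases after annotated start sites (build GRCh38.p14) were matched by symbol for all 10 members, in 17 windows since several genes have more than 1 start site. A 3-unit element was searched as GAANNTTCNNGAA or TTCNNGAANNTTC, which are each other's reverse complement, so both strands were covered, and overlapping matches were allowed. It occurred in 4 of the 17 windows, in 4 of the 10 members (HSP90AA1, HSP90AB1, HSPA8 and DNAJA1), and in 0.49% of the 35116 windows in the table. The stretches below run 5′ to 3′ on the gene's strand with 8 flanking bases on each side, and capitals mark the matched letters. Positions are counted from the start site, and those of HSP90AB1 from the most downstream of its 3 start sites. The match in DNAJA1 lay past the start site, at bases 4 to 16 of the transcribed side, and is not printed. The printed stretches of HSP90AA1 and HSPA8 also overlap an annotated exon (GENCODE v29, any gene or strand), and those of HSP90AB1 do not.
HSP90AA1, chr14:102087112-102087140, minus strand, match at -88 to -76: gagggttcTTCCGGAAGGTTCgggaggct
HSP90AB1, chr6:44247770-44247798, plus strand, match at -165 to -153: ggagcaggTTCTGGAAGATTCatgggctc
HSP90AB1, chr6:44247823-44247851, plus strand, match at -112 to -100: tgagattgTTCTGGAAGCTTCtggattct
HSPA8, chr11:123062346-123062374, minus strand, match at -230 to -218: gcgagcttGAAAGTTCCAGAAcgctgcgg
HSPA8, chr11:123062171-123062199, minus strand, match at -55 to -43: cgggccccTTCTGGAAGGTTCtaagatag

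The inducible HSP70 gene HSPA1A had a 2-unit match (GAANNTTC) and no 3-unit match in its window, and so had its near-identical copy HSPA1B, which is not among the 10 but is shown with it. A 2-unit match, as GAANNTTC or TTCNNGAA, was found in 13.5% of all windows. Counted per gene over all its windows, 7 of the 10 members had such a match. They include every member with a 3-unit match, and besides HSPA1A also DNAJB1 and HSPA4L, whose stretches are not printed. The printed stretches of the pair were the same at 23 of 24 bases.
HSPA1A, chr6:31815429-31815452, plus strand, match at -106 to -99: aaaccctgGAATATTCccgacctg
HSPA1B, chr6:31827625-31827648, plus strand, match at -105 to -98: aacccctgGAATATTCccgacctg
A match is a description of letters and not of a bound site. Of 10998 tested genes with a window, 57 held a 3-unit match. Of these 57, 35.1% were higher and 28.1% lower in the libraries labelled SMN1 overexpression, against 31.2% and 28.9% of all 10998, so the share of changed genes was close to that background.

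The libraries labelled SMN1 overexpression, called SMN1-labelled here, held 31740870 to 40275498 reads assigned to genes, and the control plasmid libraries 30379242 to 31286361. SMN1 itself was lower in the SMN1-labelled libraries, at 15.99 ± 1.08 CPM against 20.01 ± 0.432 CPM in control libraries (SD, n = 3 each; log2 fold change -0.32, edgeR quasi-likelihood adjusted p = 9.40e-05), so the label and the level of the gene it names point in different directions and every direction below is between libraries as labelled. CPM values set each gene's reads against the library's total, scaled by TMM factors. Of 10 markers of adrenergic neuroblastoma, 9 reached 1 CPM in a library and TH did not; their summed level was 33194 to 34398 CPM in SMN1-labelled and 25820 to 27599 CPM in control libraries. The 7 markers of the mesenchymal neuroblastoma state summed to 698 to 766 CPM and 959 to 994 CPM in the same order, 5 fibroblast markers to 19.0 to 20.8 and 29.9 to 32.3 CPM with COL1A2 and DCN under 1 CPM, and 4 epithelial markers to 8.68 to 9.09 and 20.5 to 21.5 CPM. The 2 of 4 leukocyte markers that were listed, PTPRC and LYZ, summed to at most 0.0998 CPM in any library. The marker sums moved with the groups, and their part in the chaperone results was not tested. These are bulk libraries, in which fewer cells of a kind and less RNA per cell cannot be told apart. Whether the 3 libraries of each group are separate cultures is not said in the labels, and the p-values reflect only library-to-library spread, which may be technical.

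In the SMN1-labelled libraries 8 of the 10 chaperone genes rose and 2 fell (edgeR quasi-likelihood test, Benjamini-Hochberg adjusted p at most 0.05 over 15829 genes). HSP90AA1, HSPH1, HSPA8, HSPA4, HSPA4L, HSPA1A, DNAJB1 and DNAJA1 were the 8, and HSP90AB1 and BAG3 were the 2. Of all genes tested 28.0% were called higher and 28.2% lower, 56.2% together, so a call alone says little here. The median log2 fold change was 0.34 over the 10 members and 0.00089 over all genes tested. Library ranges were apart for 7 members that were higher and 2 that were lower, against 30.4% and 30.2% of all genes; HSPA4 overlapped. The changes were modest: HSPA4L alone reached 1.5-fold, which 4.31% of all genes did upwards and 7.76% downwards with a call.

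**Figure D1:**
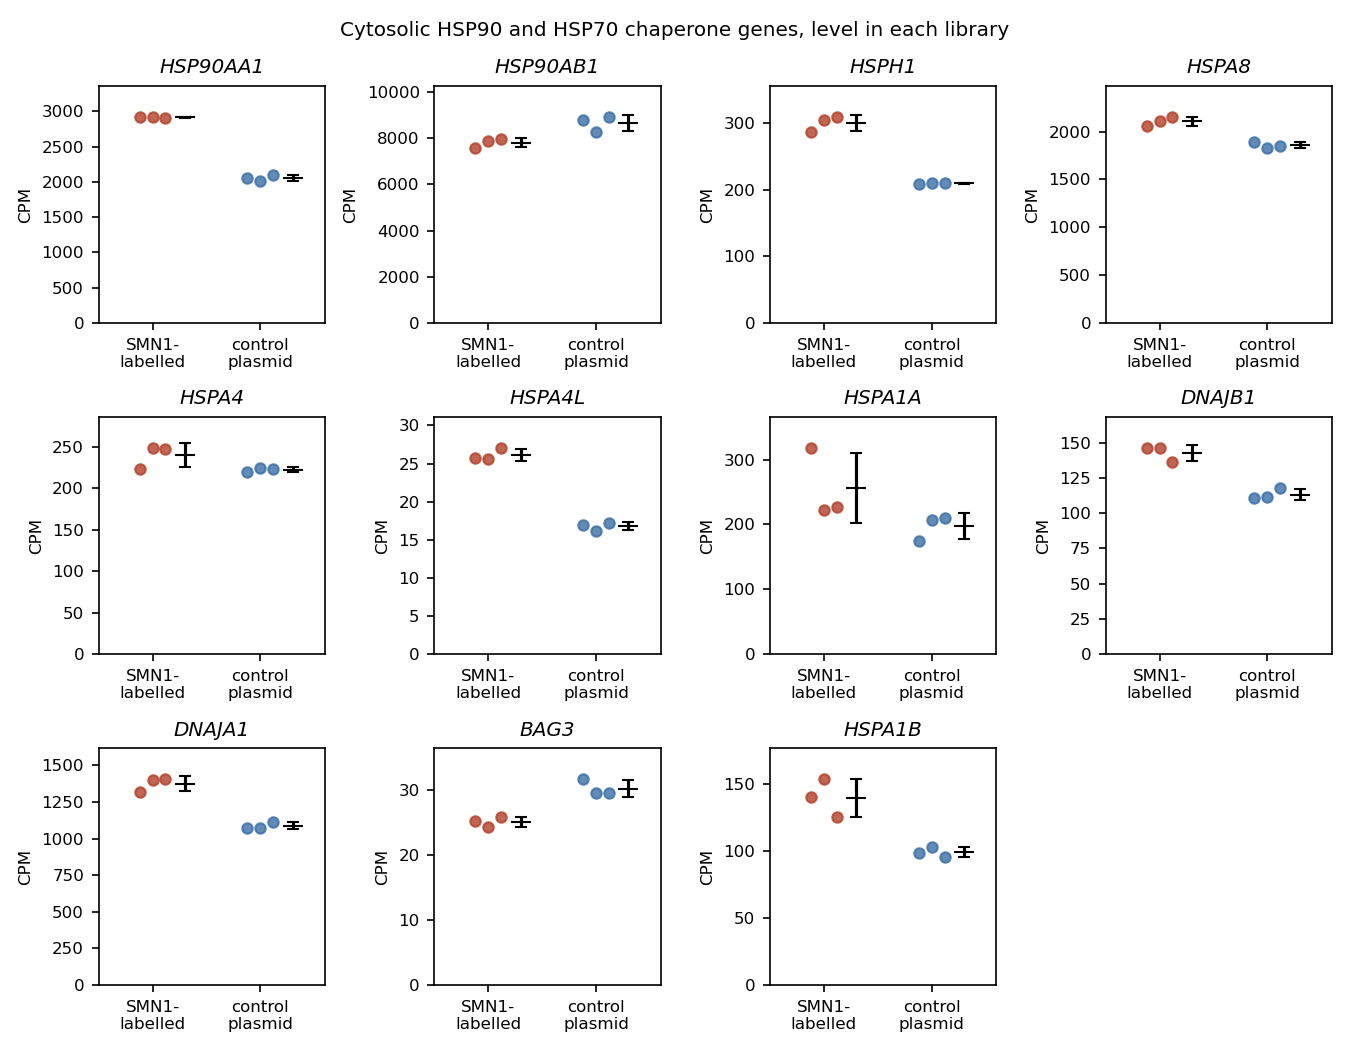
Level of each of the 10 chaperone genes and of HSPA1B in CPM (vertical axes, from 0) in the 3 SMN1-labelled and 3 control plasmid libraries; points are libraries in replicate order, and the bar beside them is the mean ± SD. HSP90AA1, HSPH1 and HSPA4L show a clear gap between groups, HSPA4 overlaps, and HSPA1A has 1 SMN1-labelled library at 318 CPM, above the other two at 222 and 227 CPM.

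On TMM-scaled counts the cytosolic HSP90 genes moved in opposite directions. HSP90AA1, the stress-inducible alpha isoform on chromosome 14 (102080738 to 102139699, minus strand, GRCh38), was at 2918, 2921 and 2905 CPM in SMN1-labelled libraries, against 2049, 2018 and 2103 CPM in control libraries. The SMN1-labelled libraries lay close together and above every control library. The rise was 1.42-fold (log2 fold change 0.50, SE 0.03, edgeR adjusted p = 3.51e-12). HSP90AB1, the constitutive beta isoform on chromosome 6 (44246166 to 44253888, plus strand), was at 7580, 7869 and 7962 CPM in SMN1-labelled libraries, against 8795, 8261 and 8923 CPM in control libraries. On this scale all SMN1-labelled values were below all control values, the nearest by about the spread within a group. The groups overlapped in unscaled share of reads (0.825% in SMN1-labelled library 3, 0.807% in control library 2). They also overlapped in FPKM, at 2610 and 2552 in the same libraries. The fall on counts was 1.11-fold (log2 fold change -0.15, SE 0.03, edgeR adjusted p = 0.00064). It did not pass on the deposited FPKM values (log2 fold change -0.06, limma adjusted p = 0.232 on log2(FPKM + 0.1)).

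The balance between the HSP90 isoforms therefore differed between the groups. HSP90AA1 supplied 27.8%, 27.1% and 26.7% of the reads of both genes in SMN1-labelled libraries, against 18.9%, 19.6% and 19.1% in control libraries. The groups did not overlap, and the difference between means, 7.997 percentage points, was many times the SD within a group (0.544 and 0.387). On the log2 scale the ratio of reads was higher by 0.65 in the SMN1-labelled libraries. An exact two-sided permutation test gave p = 0.1, the smallest that 3 against 3 allows. This ratio uses no scaling between libraries, and leaving out any library kept it between 0.63 and 0.67.

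**Figure D2:**
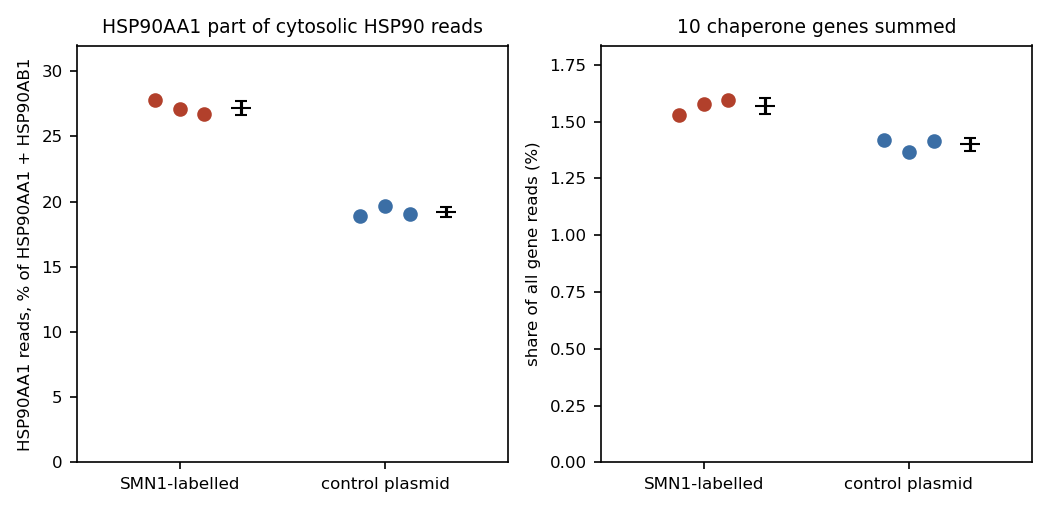
Left, reads of HSP90AA1 as a percentage of the reads of HSP90AA1 and HSP90AB1 together; right, summed reads of the 10 chaperone genes as a percentage of all gene reads, in SMN1-labelled and control plasmid libraries (points are libraries, bars the mean ± SD of 3). HSP90AA1 makes up 26.7% to 27.8% in SMN1-labelled libraries and 18.9% to 19.6% in control libraries, and the summed share is higher in every SMN1-labelled library.

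Together the 10 genes took a small but measurable share of the transcriptome. Their summed share of reads was 1.53%, 1.58% and 1.596% in SMN1-labelled libraries, against 1.42%, 1.37% and 1.41% in control libraries. Every SMN1-labelled library was above every control library (difference 0.168 percentage points, exact permutation p = 0.1, the smallest possible). These shares use library totals without TMM scaling. TMM factors were 1.026 to 1.036 in SMN1-labelled and 0.956 to 0.976 in control libraries, so the relative difference is smaller on the CPM scale. HSP90AB1 alone made up 0.778% to 0.825% of reads in SMN1-labelled libraries and 0.807% to 0.858% in control libraries. Without it, the other 9 genes took 0.762% ± 0.0102 and 0.561% ± 0.00229 of reads in the same order (SD, n = 3 each).

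Among the HSP70 genes, the constitutive member rose slightly, and the inducible pair had larger log2 fold changes on counts. The difference between these genes was not tested. Without the first SMN1-labelled library HSPA8 and HSPA1A were alike, at log2 fold changes of 0.20 and 0.19. HSPA8 encodes HSC70, the housekeeping HSP70 that also uncoats clathrin vesicles, and lies on chromosome 11 (123057489 to 123063230, minus strand). It was at 2062, 2106 and 2153 CPM in SMN1-labelled libraries, against 1889, 1830 and 1850 CPM in control libraries. The groups did not overlap, and the rise was 1.13-fold (log2 fold change 0.18, SE 0.03, edgeR adjusted p = 3.35e-05).

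HSPA1A, the stress-inducible HSP70 gene in the major histocompatibility region of chromosome 6 (31815464 to 31817946, plus strand), was at 318, 222 and 227 CPM in SMN1-labelled libraries, against 174, 208 and 209 CPM in control libraries. The first SMN1-labelled library stood well above the rest, and the lowest SMN1-labelled library exceeded the highest control library by less than the spread within either group. The fold was 1.30 (log2 fold change 0.38, SE 0.09, edgeR adjusted p = 0.00068). Leaving out the first SMN1-labelled library gave a log2 fold change of 0.19 (edgeR adjusted p = 0.0037), and DESeq2 did not call the gene (adjusted p = 0.0997). HSPA1B was steadier, at 140, 154 and 125 CPM in SMN1-labelled libraries, against 98.3, 103 and 95.7 CPM in control libraries (log2 fold change 0.50, SE 0.05, edgeR adjusted p = 1.74e-08).

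The split of reads between HSPA1A and HSPA1B is uncertain because the genes are nearly identical. The principal transcript of HSPA1A in GENCODE v29 has 2334 windows as long as a read (150 nt), and 1566 of them (67.1%) also occur in a transcript of HSPA1B or of AL671762.1, which overlaps it. For HSPA1B, 1661 of 2372 windows (70.0%) occur in a transcript of HSPA1A or AL671762.1. For the other 9 members no such window was shared. With the reads of the pair summed, the level was 458, 376 and 352 CPM in SMN1-labelled libraries, against 272, 311 and 305 CPM in control libraries. The groups did not overlap, and the sum was 1.34-fold higher (log2 fold change 0.42, SE 0.06, edgeR adjusted p = 4.29e-06), with a log2 fold change of 0.30 without the first SMN1-labelled library.

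The HSP110 proteins are distant relatives of HSP70 that serve as its nucleotide exchange factors, and their genes changed by unequal amounts. HSPA4L, which lies on chromosome 4 (127781821 to 127840733, plus strand), had the largest fold among the 10 on counts; after the length and GC correction HSPA1A and DNAJB1, and on log2(FPKM + 1) HSP90AA1 and HSPH1, were above it. It was at 25.8, 25.6 and 27.1 CPM in SMN1-labelled libraries, against 17.0, 16.2 and 17.2 CPM in control libraries. The gap between groups was far wider than the spread within them (1.55-fold, log2 fold change 0.64, SE 0.05, edgeR adjusted p = 8.29e-10).

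HSPH1, the heat-inducible HSP105 gene on chromosome 13 (31134974 to 31162388, minus strand), was at 287, 305 and 310 CPM in SMN1-labelled libraries, against 210, 210 and 210 CPM in control libraries, whose SD was 0.254 CPM. The rise was 1.43-fold (log2 fold change 0.52, SE 0.04, edgeR adjusted p = 1.73e-11). HSPA4, on chromosome 5 (133051962 to 133106449, plus strand), was at 222.7, 248.6 and 247.3 CPM in SMN1-labelled libraries, against 219.6, 224.7 and 223.1 CPM in control libraries. The first SMN1-labelled library lay within the control range and the groups overlapped. The fitted difference was 1.08-fold (log2 fold change 0.11, SE 0.04, edgeR adjusted p = 0.0227). 3 left-out libraries each ended this call: SMN1-labelled library 2 (adjusted p = 0.138), SMN1-labelled library 3 (0.0912) and control library 1 (0.0897); so did scaling with upper-quartile factors (0.0520).

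Both J-domain genes rose. After a correction for length and GC content the log2 fold change was 0.45 for DNAJB1 and 0.25 for DNAJA1. DNAJB1, the main heat-inducible HSP40 gene on chromosome 19 (14514770 to 14529770, minus strand), was at 146, 146 and 136 CPM in SMN1-labelled libraries, against 111, 111 and 117 CPM in control libraries. The groups did not overlap (log2 fold change 0.34, SE 0.04, edgeR adjusted p = 6.95e-08). DNAJA1, which encodes a farnesylated type A partner of HSC70 on chromosome 9 (33025211 to 33039907, plus strand), was at 1315, 1399 and 1407 CPM in SMN1-labelled libraries, against 1074, 1071 and 1113 CPM in control libraries. Every SMN1-labelled library was above every control library, with a log2 fold change of 0.34 (SE 0.03, edgeR adjusted p = 1.23e-08).

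BAG3 went the other way. Its product couples HSP70 to autophagy and to small heat shock proteins, and the gene, on chromosome 10 (119651370 to 119677819, plus strand), is a known HSF1 target. BAG3 was at 25.3, 24.3 and 25.8 CPM in SMN1-labelled libraries, against 31.7, 29.5 and 29.5 CPM in control libraries. The groups did not overlap, and the fall was 1.21-fold (log2 fold change -0.27, SE 0.05, edgeR adjusted p = 7.45e-05).

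Some of these values depended on a correction for gene length and base composition. BAG3 is short and GC-rich (2747 nt of joined exons, 56.9% GC); after removal of the trends with length and GC content within each library its log2 fold change was -0.05 and it was no longer called (edgeR adjusted p = 0.431). HSPA4 (5153 nt, 42.5% GC) turned, with a log2 fold change of -0.11 (edgeR adjusted p = 0.0154). HSPA4L (11621 nt, 38.1% GC) and HSPH1 (8390 nt, 39.95% GC) stayed higher, at 0.35 and 0.24, as did HSP90AA1 (5248 nt, 45.2% GC), at 0.34, and HSPA8, at 0.08 (edgeR adjusted p = 0.0263). HSPA1A, at 2483 nt and 59.7% GC the most GC-rich of the 10, and DNAJB1 (53.0% GC) were higher by more than before, at 0.64 and 0.45. HSPA1B was then at 0.75 and the summed pair at 0.68. With the correction 7 members were higher and 2 lower (HSP90AB1 and HSPA4), against 22.7% and 25.1% of all genes with known length and GC, and the median of the members was 0.24.

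**Figure D3:**
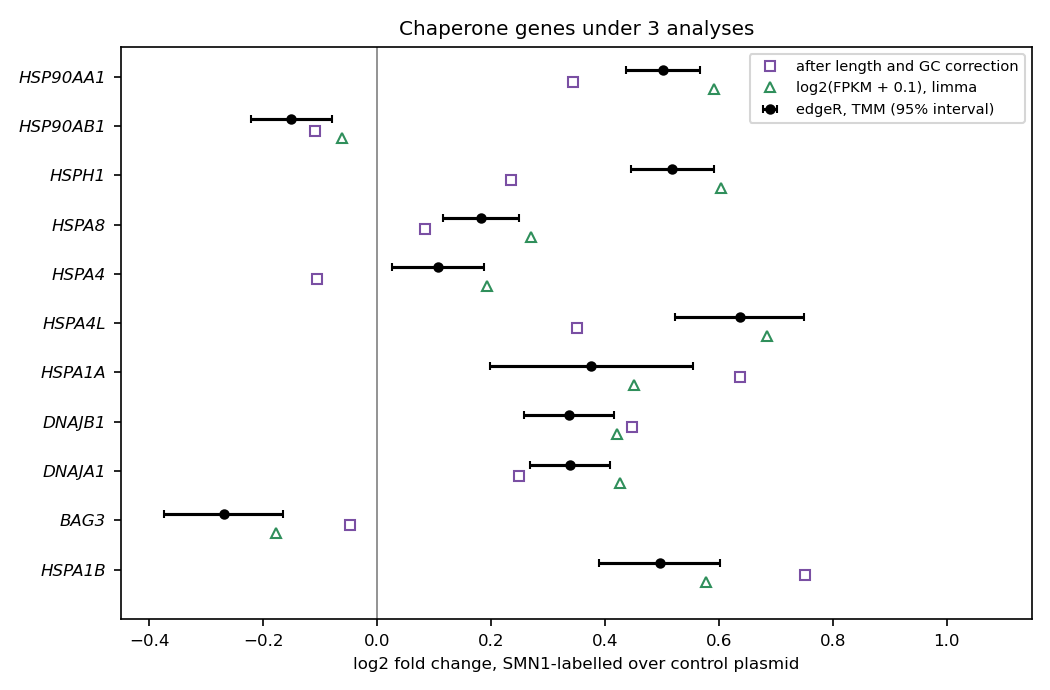
Log2 fold change of SMN1-labelled over control plasmid libraries (horizontal axis) for the 10 chaperone genes and HSPA1B: circles with 95% intervals from edgeR on counts, squares after the length and GC correction, triangles from limma on log2(FPKM + 0.1). HSP90AA1, HSPH1, HSPA8, HSPA4L, HSPA1A, DNAJB1, DNAJA1 and HSPA1B stay right of 0 in all 3, HSPA4 crosses to -0.11 after the correction, and BAG3 and HSP90AB1 stay left of 0.

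Levels can be compared between genes only per length, for which the deposited FPKM (reads scaled by gene length and sequencing depth, on a linear scale) were used. HSP90AB1 was the most abundant member, at 2546 ± 78.0 FPKM in SMN1-labelled and 2657 ± 90.8 FPKM in control libraries (SD, n = 3 each). HSP90AA1 followed at 556 ± 2.12 and 369 ± 3.92 FPKM, DNAJA1 at 501 ± 21.1 and 372 ± 3.66 FPKM, and HSPA8 at 422 ± 11.3 and 350 ± 7.55 FPKM, in the same order of groups. On this FPKM scale HSP90AA1 and DNAJA1 differed by less than their spread in control libraries, and in SMN1-labelled libraries every value of HSP90AA1 was above every value of DNAJA1. The order of these genes depends on the gene length used. Per kilobase of the annotated principal transcript, HSPA8 was at 855 CPM in SMN1-labelled and 754 CPM in control libraries, HSP90AA1 at 863 and 609 CPM, and DNAJA1 at 577 and 456 CPM, so that HSPA8 stood above DNAJA1 in both groups and above HSP90AA1 in control libraries.

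HSPA1A stood at 103 ± 21.3 FPKM in SMN1-labelled and 74.9 ± 7.24 FPKM in control libraries, HSPA4 at 45.7 ± 2.99 and 39.9 ± 0.588 FPKM, and HSPH1 at 34.8 ± 1.595 and 22.9 ± 0.279 FPKM. DNAJB1 was at 17.0 ± 0.606 and 12.6 ± 0.269 FPKM, BAG3 at 8.92 ± 0.291 and 10.1 ± 0.495 FPKM, and HSPA4L, the least abundant, at 2.22 ± 0.0781 and 1.34 ± 0.0379 FPKM. The place of DNAJB1 in this order also depends on length. For DNAJB1 the deposited counts and FPKM imply a length of 8684 nt, against 3672 nt of joined exons in GENCODE v29. Per kilobase of its annotated principal transcript (2264 nt) it was at 63.1 CPM in SMN1-labelled and 49.97 CPM in control libraries, above HSPH1 (57.9 and 40.4) and HSPA4 (49.6 and 46.1). DNAJB1 and HSP90AA1 overlap a protein-coding gene on the opposite strand, TECR and WDR20, and the sources used here do not say whether counting used strand.

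The wider chaperone network held genes that rose and genes that fell. Over 8 lists of related genes, with the 10 members left out and each gene counted once, 82 genes were tested. Of these, 24 rose and 32 fell, and the middle log2 fold change was -0.06. Among all genes tested 28.0% were called higher and 28.2% lower, and the counts for each list below stand against the same shares. The larger side depended on the scale: on log2(FPKM + 0.1) the split was 30 higher and 25 lower. On that scale all genes also leaned upwards, with 4956 called higher and 2963 lower.

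Of 8 other HSP70 family genes 3 rose and 1 fell. HSPA12A, an atypical family member, rose 1.32-fold (64.6 ± 3.01 CPM in SMN1-labelled and 49.1 ± 2.38 CPM in control libraries, edgeR adjusted p = 6.94e-08) and HSPA1B is given above. HSPA13 was at 3.87 ± 0.340 and 3.07 ± 0.0412 CPM, a call lost with DESeq2 (adjusted p = 0.0803). HSPA2, an HSP70 best known for its role in sperm development, fell 1.44-fold (41.8 ± 2.06 CPM against 60.3 ± 0.319 CPM in control libraries, edgeR adjusted p = 2.80e-10). HSPA6, a strictly heat-inducible HSP70, was at 0.25 CPM in SMN1-labelled and 0.47 CPM in control libraries and did not pass (edgeR adjusted p = 0.0546).

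Of 10 other J-domain genes 4 rose and 1 fell. DNAJC6, which encodes auxilin, the neuronal partner of HSC70 in clathrin uncoating, rose 1.48-fold (36.7 ± 1.39 CPM in SMN1-labelled and 24.8 ± 0.700 CPM in control libraries, edgeR adjusted p = 7.74e-10). DNAJA2, a type A gene like DNAJA1, rose 1.23-fold, a call lost after the length and GC correction (edgeR adjusted p = 0.0786). DNAJC21, a ribosome biogenesis factor, was 1.19-fold higher but at a log2 fold change of -0.035 after that correction, where it did not pass. DNAJC7, which binds both HSP70 and HSP90, fell 1.20-fold (421 ± 8.24 CPM against 507 ± 17.2 CPM in control libraries).

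Of 24 co-chaperones of HSP90, 12 fell and 6 rose on counts, with a median log2 fold change of -0.13. With log2(FPKM + 1) and no filter 5 were lower and 6 higher, and after the length and GC correction 9 were lower and 5 higher, with a median of -0.02. RUVBL2 and RUVBL1, the ATPases of the R2TP co-chaperone complex, fell 1.33-fold and 1.24-fold, and PIH1D1, another R2TP subunit, fell 1.32-fold (130 ± 6.001 CPM against 172 ± 5.49 CPM in control libraries, edgeR adjusted p = 5.04e-09). The cyclophilin gene PPID rose 1.28-fold (232 ± 12.6 CPM in SMN1-labelled and 182 ± 4.20 CPM in control libraries, edgeR adjusted p = 4.21e-08), CDC37L1 1.42-fold and CHORDC1 1.32-fold. Of 9 further HSP70 co-chaperones 2 rose and 5 fell. BAG5 and BAG4, nucleotide exchange factors of the same family as BAG3, rose 1.45-fold and 1.39-fold. BAG1 fell 1.34-fold (200 ± 2.49 CPM against 268 ± 5.78 CPM in control libraries, edgeR adjusted p = 2.23e-10), the exchange factor HSPBP1 fell 1.35-fold and the histone chaperone DNAJC9 1.22-fold. The BAG family therefore held members that rose and members that fell.

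Of 6 tested genes listed by name as small heat shock proteins, 0 rose and 3 fell with edgeR and with DESeq2, and 0 were higher at an unadjusted edgeR p under 0.05. Whether each listed gene, HSPB11 among them, acts as a chaperone was not tested. HSPB1, which encodes HSP27, fell 1.35-fold (158 ± 7.36 CPM in SMN1-labelled and 213 ± 8.48 CPM in control libraries, edgeR adjusted p = 1.59e-09) and HSPB11 fell 1.18-fold. After the length and GC correction HSPB1 was at a log2 fold change of -0.09 (edgeR adjusted p = 0.0443, against -0.44 before it), HSPB11 lost its call (edgeR adjusted p = 0.0503), and the median of the list was -0.02, against -0.26 before it. HSPB3 was at 0.142 ± 0.0423 CPM against 0.470 ± 0.144 CPM, close to the 0.0745 to 0.0988 CPM that 3 reads are worth. CRYAB, the other well-known small heat shock gene, was at 0.243 CPM or less in every library and was not tested. Among the 10 further heat-inducible genes CHORDC1 alone rose and 7 fell with edgeR on uncorrected counts. After the length and GC correction 2 were higher and 7 lower, and on log2(FPKM + 0.1) 2 were higher and 5 lower. This list shares genes with the HSP90 co-chaperones, among them CHORDC1. UBB, a polyubiquitin gene, fell 1.40-fold (1561 ± 18.6 CPM in SMN1-labelled and 2188 ± 64.7 CPM in control libraries, edgeR adjusted p = 1.19e-11). GADD45B, a growth arrest gene, was at 0.620 ± 0.1003 CPM in SMN1-labelled and 2.43 ± 0.348 CPM in control libraries (edgeR adjusted p = 1.90e-08).

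HSF1 and HSF2, the widely expressed heat shock factors, differed little between the groups, and neither call was stable. HSF1, the main stress-responsive factor, was at 53.1 ± 2.11 CPM in SMN1-labelled and 57.3 ± 1.37 CPM in control libraries (log2 fold change -0.11, SE 0.04, edgeR adjusted p = 0.0263). DESeq2 did not call it (adjusted p = 0.0614), and after the length and GC correction its log2 fold change was 0.035. HSF2 was at 19.6 ± 1.11 and 17.4 ± 0.864 CPM (log2 fold change 0.17, edgeR adjusted p = 0.0219), a call also lost with DESeq2 (adjusted p = 0.0670). HSF4 fell 1.595-fold at a low level (2.997 ± 0.395 CPM against 4.75 ± 0.622 CPM in control libraries). SIRT1 and EP300, a deacetylase and an acetyltransferase that act on HSF1, rose 1.30-fold and 1.12-fold; the call of SIRT1 was lost after the correction (log2 fold change 0.17, edgeR adjusted p = 0.0890).

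Of 10 counterparts in other compartments 6 rose and 2 fell. On uncorrected counts the largest rise in this list was that of DNAJC3, at 1.90-fold, also above all 10 cytosolic genes. It was at 16.2 ± 0.499 CPM in SMN1-labelled and 8.54 ± 0.210 CPM in control libraries (edgeR adjusted p = 8.08e-11). The endoplasmic reticulum genes HSP90B1 and HSPA5 and their J-domain partner DNAJB11, all of which serve folding of secreted proteins, rose 1.73-fold, 1.53-fold and 1.44-fold, more than HSPA8 and, for HSP90B1 on uncorrected counts, more than any of the 10 cytosolic genes. TRAP1, the mitochondrial HSP90, fell 1.26-fold (215 ± 0.497 CPM in SMN1-labelled and 271 ± 2.64 CPM in control libraries, edgeR adjusted p = 6.96e-09), and HSPA9, the mitochondrial HSP70, fell 1.12-fold (edgeR adjusted p = 9.52e-05).

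The length and GC correction also moved other related genes by over 1.5 times without ending their calls. Among those that rose, the log2 fold change after it was 0.31 for DNAJC6, 0.33 for CDC37L1, 0.14 for CHORDC1, 0.32 for BAG5, 0.25 for BAG4 and 0.26 for DNAJB11. Among those that fell it was -0.21 for RUVBL2, -0.21 for PIH1D1, -0.12 for HSPBP1, -0.44 for HSF4 and -0.29 for UBB. DNAJC7 and HSPA9 fell by more, at -0.44 and -0.40.

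**Figure D4:**
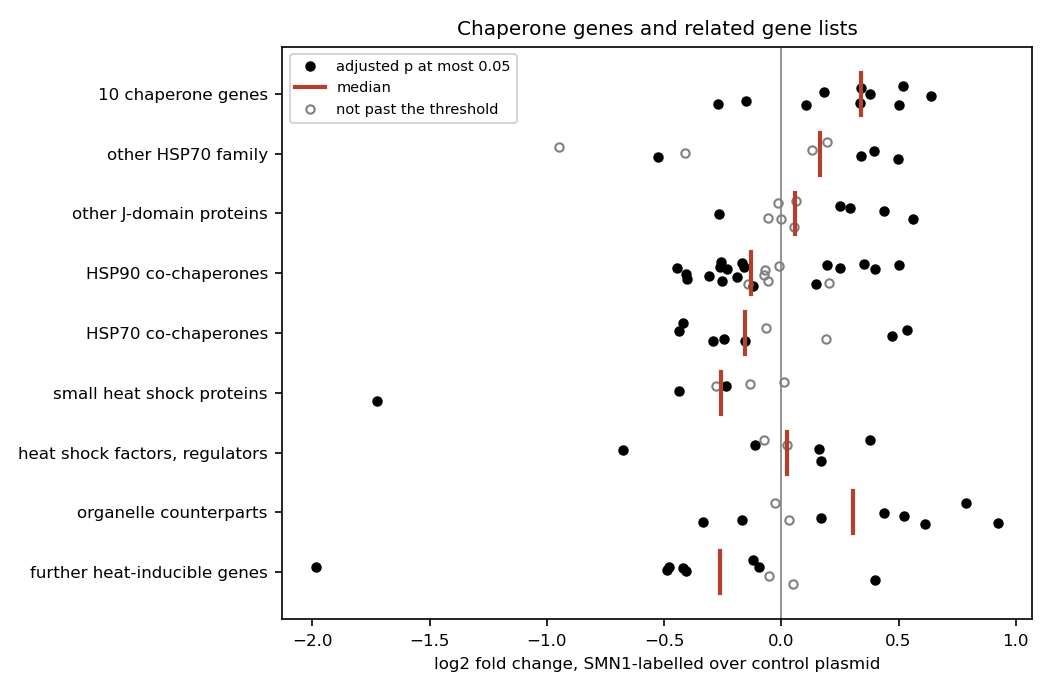
Log2 fold change of SMN1-labelled over control plasmid libraries for each tested gene (points; filled where the edgeR adjusted p is at most 0.05) in the 10 chaperone genes and 8 related lists, with the list median as a red bar. The median is 0.34 for the 10 chaperone genes and -0.13 for the HSP90 co-chaperones, and lies below 0 for the small heat shock proteins and the further heat-inducible genes.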

How the data were processed

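Total RNA was made into stranded mRNA libraries and sequenced as paired 150 nt reads, per the labels' protocols; alignment used HISAT2 and GRCh38, and DESeq2 was also named, per the submitters' processing notes. Which tool and annotation were used for counting, and how strand and multi-mapping reads were treated, the sources used here do not say. The deposited table of counts holds whole reads per gene, and the deposited FPKM table holds values the authors scaled by gene length and depth, to 2 decimals. Samples were grouped by title and matched to columns by name.

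Counts were tested with edgeR 4.0.16 in R 4.3.3 (TMM, default filterByExpr, quasi-likelihood fit with group as the only term, two-sided, Benjamini-Hochberg over 15829 genes, calls at 0.05). Standard errors (SE) were taken as |log2 fold change| / sqrt(F). Alternatives used DESeq2 1.42.0, limma 3.58.1 (voom, and log2 FPKM with pseudocounts of 0.1 and 1 for genes at 0.5 FPKM in 3 libraries, which understate changes of low genes), other scaling and filters, a replicate block, left-out libraries, and splines on joined exon length and GC content (GENCODE v29) as offsets. Per-kilobase levels on principal transcripts were added after seeing the data. The fit was tested on simulated data. Named are all 10 members, HSPA1B, HSF1, HSF2 and, from each related list, up to 3 called genes per direction in order of p, of which 1 is not reported here; HSPA6, CRYAB, TH and other marker genes were named besides. The members and lists were chosen with earlier results of these data known. All pairs of replicates differed beyond sampling noise (chi-square over degrees of freedom 2.41 to 4.12). Intervals cover the spread between libraries only, and 3 reads equal 0.0745 to 0.0988 CPM.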

Additional observations from a re-analysis of the deposited data

How the results depend on the processing

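Calls for HSP90AA1, HSPH1, HSPA8, HSPA4L, DNAJB1, DNAJA1 and HSPA1B kept their direction and stayed past the threshold under all 17 alternatives run for each, with log2 fold changes of 0.34 to 0.59 for HSP90AA1 and 0.35 to 0.68 for HSPA4L. Over the 10 members and HSPA1B, 176 of 187 alternative values kept direction and call, 10 lost the call and 1 reversed: HSPA4 after the length and GC correction (-0.11). For 34 related genes chosen by the naming rule, 552 of 575 alternative values kept direction and call, 21 lost the call and 2 reversed under that correction, DNAJC21 (-0.035) and HSF1 (0.035), neither called; the cause was not tested. Requiring a 1.5-fold change left 1911 genes, 1 member and 6 related genes called, since most changes are smaller. Leaving out each library gave 8021 to 8682 genes, 9 to 10 members and 53 to 59 related genes called, log2 fold changes of 0.30 to 0.50 for HSPA1A and HSPA1B summed, 0.63 to 0.67 for the difference in the HSP90AA1 to HSP90AB1 ratio, and 0.150 to 0.187 percentage points for the summed share. As a share of summed FPKM that difference was 0.254 percentage points. Of genes called on log2(FPKM + 0.1), 4956 were higher and 2963 lower, against 4426 and 4465 on counts; the median of all genes was then 0.09. With the replicate number as a block, 8707 genes, 10 members and 56 related genes were called and the summed HSPA1 row stood at 0.41. Same-numbered libraries correlated at 0.0053, 0.0133 and 0.0030, and 2 of 3 SMN1-labelled libraries correlated best with their own number. All these correlations are near 0, and with 3 libraries per group they cannot decide whether the numbers pair the samples. The split of related genes between directions changed on FPKM scales. Low counts limit HSPB3, HSPA6 and HSF4.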
